A study of Mus musculus with 4 samples.

Results

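The 10 genes described here are activity-induced early genes of the newborn mouse cerebral cortex: the zinc-finger factor genes Egr1, Egr2, Egr3 and Egr4, the orphan nuclear receptor genes Nr4a1, Nr4a2 and Nr4a3, the synaptic effector gene Arc, and the early-response genes Ier2 and Ier5. They were chosen by gene name as early genes outside the AP-1 family, and all 10 were present among the 55414 genes of the deposited table. The study compared C57BL/6J mice on postnatal day 1 in 2 groups of 2 libraries. The cKO libraries (replicates 2 and 3) had the genotype Mkk7flox/flox Emx1-Cre, and the Control libraries (also replicates 2 and 3) had Mkk7flox/flox without Cre, so floxed alleles were shared by both groups. Emx1-Cre recombines in dorsal forebrain progenitors and so in the cortical excitatory neurons and glia made by them, and other cells of the dissected cortex keep Mkk7. Nothing in the labels ties a library to its own animal or litter, so every p-value reflects the spread among the 4 libraries alone, part of which may be technical.

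Early genes of this kind need no new protein for their induction. Calcium entry and growth factor signals activate CREB, which binds the cAMP response element (CRE), and SRF with its ELK partners, which binds the CArG box, and transcription follows within minutes. EGR proteins bind GC-rich sites through zinc fingers, and NR4A proteins bind DNA as monomers, as dimers, or with retinoid X receptors. In the cortex EGR1, EGR3 and ARC serve synaptic plasticity, and NR4A2 also marks subplate and claustrum neurons during development.

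The sequences in front of the genes were searched for the elements that CREB, SRF, EGR and NR4A proteins are known to bind. RefSeq promoters (build GRCm38.p6) were at hand for 6 of the 10 genes: Nr4a1, Nr4a2, Nr4a3, Egr2, Egr4 and Ier5. Those of Egr1, Egr3, Arc and Ier2 are named only. The 250 bases before the start are given for the 5 genes with a CRE core, 5′ to 3′ on the strand of the gene. Egr2 had several RefSeq starts, and 1 of those with a core is shown. Capitals mark the core of the CRE (TGACG, or CGTCA on the other strand) and the CArG box of SRF.
Nr4a1, chr15:101266596-101266845, plus strand: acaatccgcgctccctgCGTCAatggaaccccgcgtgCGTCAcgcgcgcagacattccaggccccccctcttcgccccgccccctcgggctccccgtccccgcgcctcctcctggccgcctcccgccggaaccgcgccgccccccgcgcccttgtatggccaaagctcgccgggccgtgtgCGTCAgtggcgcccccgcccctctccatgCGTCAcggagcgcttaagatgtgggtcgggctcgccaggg
Nr4a2, chr2:57124004-57124253, minus strand: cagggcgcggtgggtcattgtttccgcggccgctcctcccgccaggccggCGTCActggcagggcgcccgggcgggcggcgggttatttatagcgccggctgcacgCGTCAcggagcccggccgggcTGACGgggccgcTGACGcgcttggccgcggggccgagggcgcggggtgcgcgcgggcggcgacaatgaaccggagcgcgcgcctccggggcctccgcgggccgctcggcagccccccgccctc
Nr4a3, chr4:48045055-48045304, plus strand: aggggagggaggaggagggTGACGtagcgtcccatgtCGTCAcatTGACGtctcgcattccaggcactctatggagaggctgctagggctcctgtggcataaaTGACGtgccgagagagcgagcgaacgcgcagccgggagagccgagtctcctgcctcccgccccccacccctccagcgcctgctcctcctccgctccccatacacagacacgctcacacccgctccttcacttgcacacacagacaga
Egr4, chr6:85513590-85513839, minus strand: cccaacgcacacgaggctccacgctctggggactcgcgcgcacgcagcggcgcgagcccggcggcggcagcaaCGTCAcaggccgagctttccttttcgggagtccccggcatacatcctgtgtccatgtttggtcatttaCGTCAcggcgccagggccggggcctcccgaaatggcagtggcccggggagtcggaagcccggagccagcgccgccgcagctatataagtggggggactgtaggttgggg
Egr2, chr10:67537619-67537868, plus strand: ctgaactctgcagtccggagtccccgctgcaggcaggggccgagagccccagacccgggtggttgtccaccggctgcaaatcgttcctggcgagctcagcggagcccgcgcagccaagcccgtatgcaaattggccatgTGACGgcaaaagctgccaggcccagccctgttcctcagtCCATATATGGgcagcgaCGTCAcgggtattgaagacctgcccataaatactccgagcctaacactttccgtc
A CRE core was found in at least 1 window of 5 of the 6 genes, against 19.8% of the 27025 genes with such a window. Counted by window, 7 of 10 held a core, against 17.8% of 32851 windows. The Egr2 windows that begin at 67535249 and 67537316 held no core, and its windows with a core overlap each other. Nr4a1, Nr4a2 and Nr4a3 each held 4 cores, Egr4 held 2, and the Egr2 start shown held 2. The 8-base palindrome TGACGTCA, which contains the core on both strands, occurred in none of the 6 genes and in 1.77% of all genes. The CArG box stood only in Egr2 among the 6, between 72 and 63 bases before the start shown, and in 1.62% of all genes. Nr4a1 also held the EGR-type site GCGGGGGCG (2.93% of all genes). The EGR site GCGTGGGCG and the NR4A monomer site AAAGGTCA occurred in none of the 6 genes, and in 0.622% and 1.55% of all genes. The Ier5 window held none of these. Both strands were searched, and a match describes letters in this window and not binding.

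**Figure D1:**
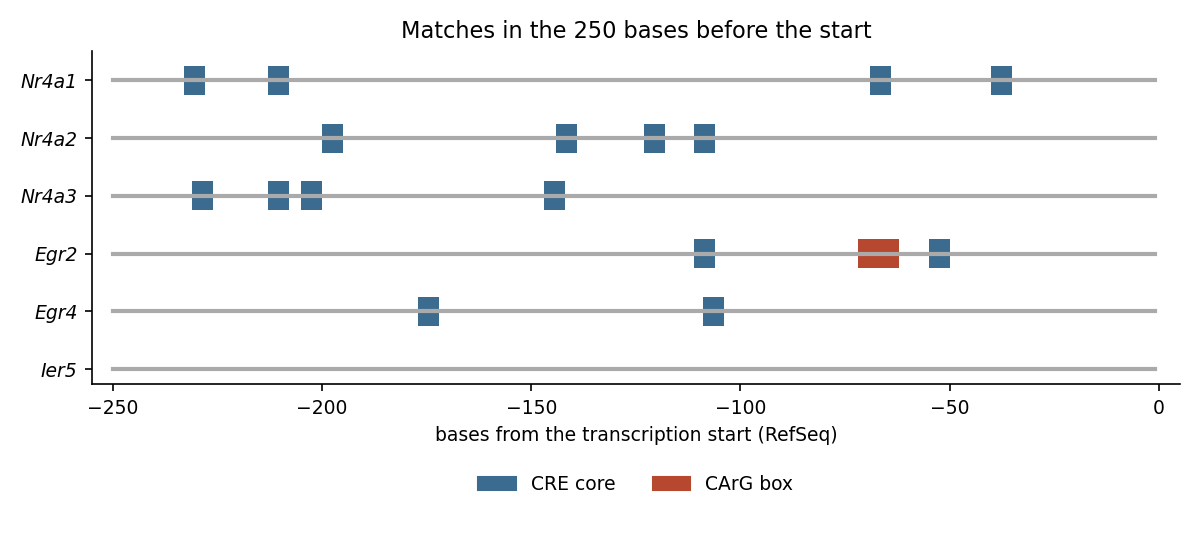
Position of CRE cores (blue) and CArG boxes (red) in the 250 bases before the RefSeq start of 6 genes, with the distance from the start in bases on the x axis and 1 grey line per gene. Nr4a1, Nr4a2 and Nr4a3 carry 4 CRE cores each, Egr2 carries the CArG box, and the Ier5 line is empty. For Egr2, 1 of several starts is drawn, taken from those with a CRE core.

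The libraries held 19421491 and 22511247 estimated counts in cKO 2 and cKO 3 and 19429923 and 19842204 in Control 2 and Control 3. Xist had 0 counts in cKO 3 and 1004 to 1218 in the others, so the sample behind cKO 3 was male and the rest were female. Map2k7, which encodes MKK7, stood at 47.9 and 48.2 CPM (counts scaled to a library of 1e+06) in cKO libraries and at 38.4 and 30.4 CPM in Control libraries. That sum over the whole gene checks no deletion of single exons, so the cKO direction rests on the labels. Choroid plexus RNA followed the replicate number rather than the genotype, with a summed level of 449 and 10.7 TPM in cKO 2 and cKO 3 and 1102 and 14.5 TPM in Control 2 and Control 3. Every one of the 9 cortical projection neuron markers had counts, with a summed level of 913 and 1001 TPM in cKO libraries and 730 and 855 TPM in Control libraries (TPM scales by transcript length and library total).

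None of the 10 genes passed the test between genotypes. Over all 17017 genes tested, 8 passed at an edgeR adjusted p below 0.05, which is 0.047% of them, and the 10 genes had edgeR adjusted p-values between 0.360 and 0.834. DESeq2 and limma-voom also called 0 of the 10. At an unadjusted edgeR p below 0.05 there were 4 of the 10, Egr1, Nr4a1, Nr4a2 and Ier5, where 10.9% of all genes had such a p. All 10 passed the filter on low counts. The fold changes were negative for 6 of the 10, against 50.2% of all genes tested, and positive for 4, with a median log2 fold change of -0.43, against -0.0021 over all genes tested. For 7 of the 10 the cKO and Control libraries did not overlap, 5 lower and 2 higher in cKO. The same held for 44.1% of all genes tested, 22.2% lower and 22% higher. In bulk tissue, fewer cells of a type and less RNA per cell cannot be told apart.

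**Figure D2:**
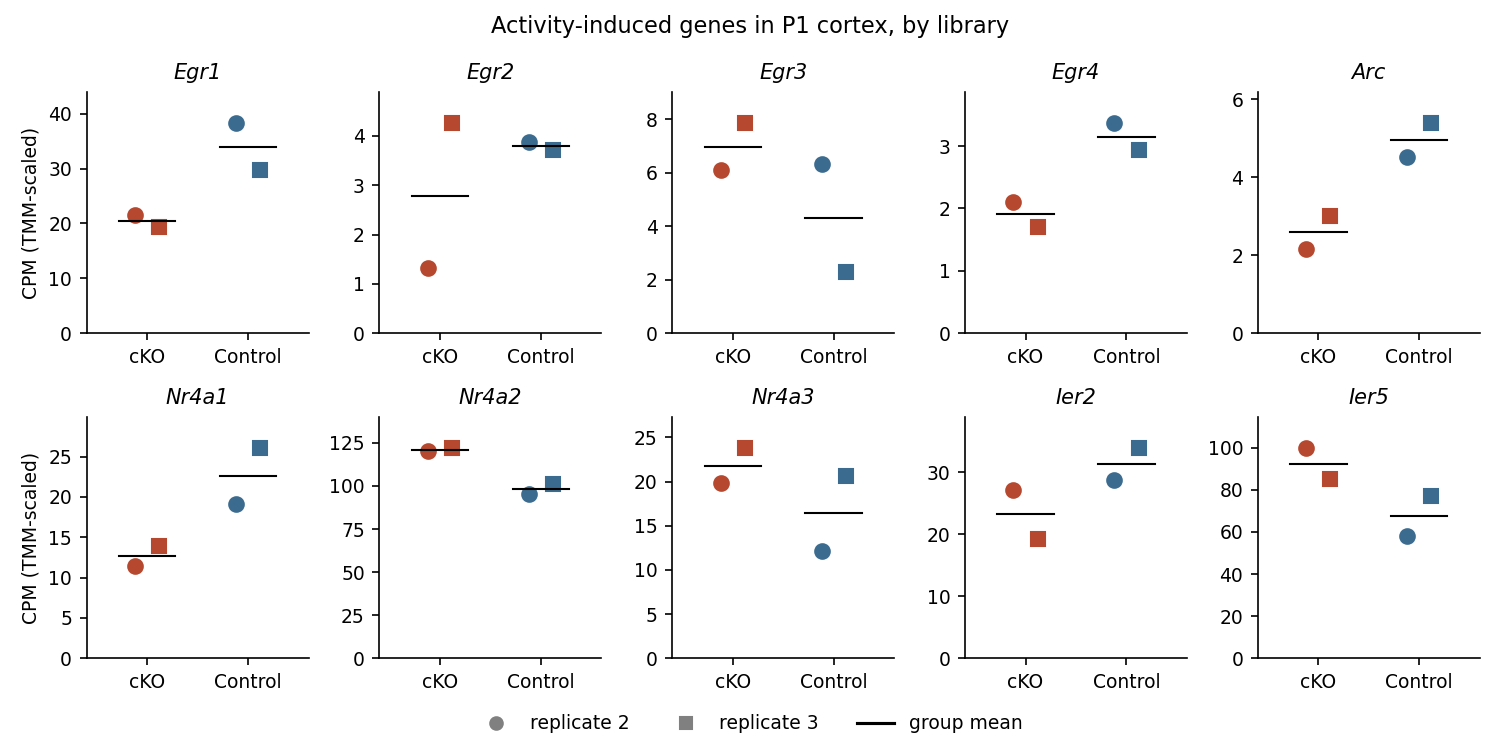
Level of each of the 10 genes in CPM (TMM-scaled, y axes from 0, a separate scale per gene) in cKO (red) and Control (blue) libraries; circles are replicate 2, squares replicate 3 and black lines the means. Egr1, Egr4, Arc, Nr4a1 and Ier2 lie lower in both cKO libraries, Nr4a2 and Ier5 lie higher in both, and Egr2, Egr3 and Nr4a3 overlap.

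Among the EGR genes, Egr1 was the most abundant. Egr1, which encodes an activity-induced activator used as a marker of recent neuronal firing (chromosome 18, 34992876 to 34998037, GRCm39), had 21.6 and 19.4 CPM in cKO 2 and cKO 3, against 38.2 and 29.7 CPM in Control 2 and Control 3. Both cKO libraries lay below both Control libraries. The log2 fold change was -0.73 with an SE of 0.21 and an edgeR adjusted p of 0.360, the smallest adjusted p of the 10 genes. Egr4, a family member abundant in neurons (chromosome 6, 85488103 to 85490571), had 2.11 and 1.71 CPM in cKO libraries, against 3.36 and 2.94 CPM in Control libraries. The groups did not overlap, but the gene rested on 79 counts in cKO and 124 in Control libraries. The scaled ratio of these sums was 0.599 (95% exact binomial interval 0.446 to 0.801, which covers counting error only). For Egr4 edgeR gave a log2 fold change of -0.72 (SE 0.51) and an adjusted p of 0.647.

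Egr2 and Egr3 gave no order between the genotypes. Egr2, needed for hindbrain segmentation and for myelination by Schwann cells (chromosome 10, 67371305 to 67378018), had 1.32 and 4.25 CPM in cKO 2 and cKO 3, against 3.87 and 3.71 CPM in Control 2 and Control 3. The highest and the lowest library were both cKO, 3.23-fold apart, whereas the Control libraries were 1.04-fold apart. Its log2 fold change was -0.44 (SE 0.61, edgeR adjusted p = 0.834). Egr3, needed for the development of muscle spindles and for plasticity in the hippocampus (chromosome 14, 70314652 to 70320063), had 6.11 and 7.84 CPM in cKO 2 and cKO 3, against 6.31 and 2.28 CPM in Control 2 and Control 3. Here the Control libraries were 2.76-fold apart, and Control 2 lay between the cKO libraries. The log2 fold change was 0.70 (SE 0.51, edgeR adjusted p = 0.662).

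The NR4A receptor genes split. Nr4a1, which encodes NUR77 (chromosome 15, 101152150 to 101172676), had 11.4 and 13.9 CPM in cKO 2 and cKO 3, against 19.1 and 26.0 CPM in Control 2 and Control 3. Both cKO libraries lay below both Control libraries. The log2 fold change was -0.83 (SE 0.26, edgeR adjusted p = 0.379). Nr4a2, which encodes NURR1, a factor required for midbrain dopamine neurons (chromosome 2, 56996842 to 57014015), had 120 and 122 CPM in cKO libraries, against 95.5 and 101 CPM in Control libraries. This gene lay higher in both cKO libraries, and its libraries were 1.01-fold apart in cKO and 1.06-fold apart in Control. The log2 fold change was 0.30 (SE 0.12, edgeR adjusted p = 0.439). Nr4a3, which encodes NOR1 (chromosome 4, 48045153 to 48086447), had 19.9 and 23.8 CPM in cKO 2 and cKO 3, against 12.2 and 20.6 CPM in Control 2 and Control 3. Control 3 lay above cKO 2, so the groups overlapped, and the log2 fold change was 0.41 (SE 0.30, edgeR adjusted p = 0.655). The promoters shown above held 4 CRE cores in each of these genes, in Nr4a1 with its negative fold change and in Nr4a2 and Nr4a3 with their positive ones. Whether these cores bear on the fold changes, none of which was called, was not tested.

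Arc had the most negative fold change of the 10. Its product forms virus-like capsids and drives the endocytosis of AMPA receptors at synapses. Arc (chromosome 15, 74540932 to 74544419) had 2.16 and 3.02 CPM in cKO 2 and cKO 3, against 4.53 and 5.38 CPM in Control 2 and Control 3. The groups did not overlap, and the counts summed to 110 in cKO and 195 in Control libraries. Their scaled ratio was 0.530 (95% exact binomial interval 0.416 to 0.674, counting error only). The log2 fold change, with the spread between libraries counted, was -0.93 (SE 0.44, edgeR adjusted p = 0.490).

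The early-response genes Ier2 and Ier5, which share a conserved N-terminal domain, stood on opposite sides of 0. Ier2 (chromosome 8, 85387960 to 85389483) had 27.2 and 19.3 CPM in cKO 2 and cKO 3, against 28.8 and 33.9 CPM in Control 2 and Control 3. The groups did not overlap, although cKO 2 came close to Control 2, and the log2 fold change was -0.43 (SE 0.24, edgeR adjusted p = 0.548). Ier5 (chromosome 1, 154972107 to 154975382), whose product is also known to activate the heat shock factor HSF1, had 99.8 and 85.2 CPM in cKO 2 and cKO 3, against 58.3 and 76.9 CPM in Control 2 and Control 3. Both cKO libraries lay above both Control libraries, with a log2 fold change of 0.45 (SE 0.18, edgeR adjusted p = 0.431). All 6 tested heat shock genes also had positive fold changes (median log2 fold change 0.75), with a summed level of 1337 and 1461 TPM in cKO libraries and 1174 and 1211 TPM in Control libraries. The part of heat shock in the Ier5 value was not tested.

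For 7 of the 10 genes the cKO and Control libraries did not overlap, so leaving out 1 library could hardly turn their direction. The direction of 9 of the 10 genes was the same when each library was left out in turn. Egr2 was the exception: its log2 fold change was 0.17 without cKO 2 and -1.52 without cKO 3. Egr3 moved between 0.14 without Control 3 and 1.61 without Control 2, and Nr4a3 between 0.08 without Control 2 and 0.84 without Control 3. Nr4a2 was the steadiest, between 0.26 and 0.34. Egr1 ranged from -0.90 to -0.54, Egr4 from -0.88 to -0.58, Nr4a1 from -1.04 to -0.60 and Arc from -1.20 to -0.71. Ier2 ranged from -0.70 to -0.20 and Ier5 from 0.26 to 0.66. None of these fits called any of the 10 genes.

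**Figure D3:**
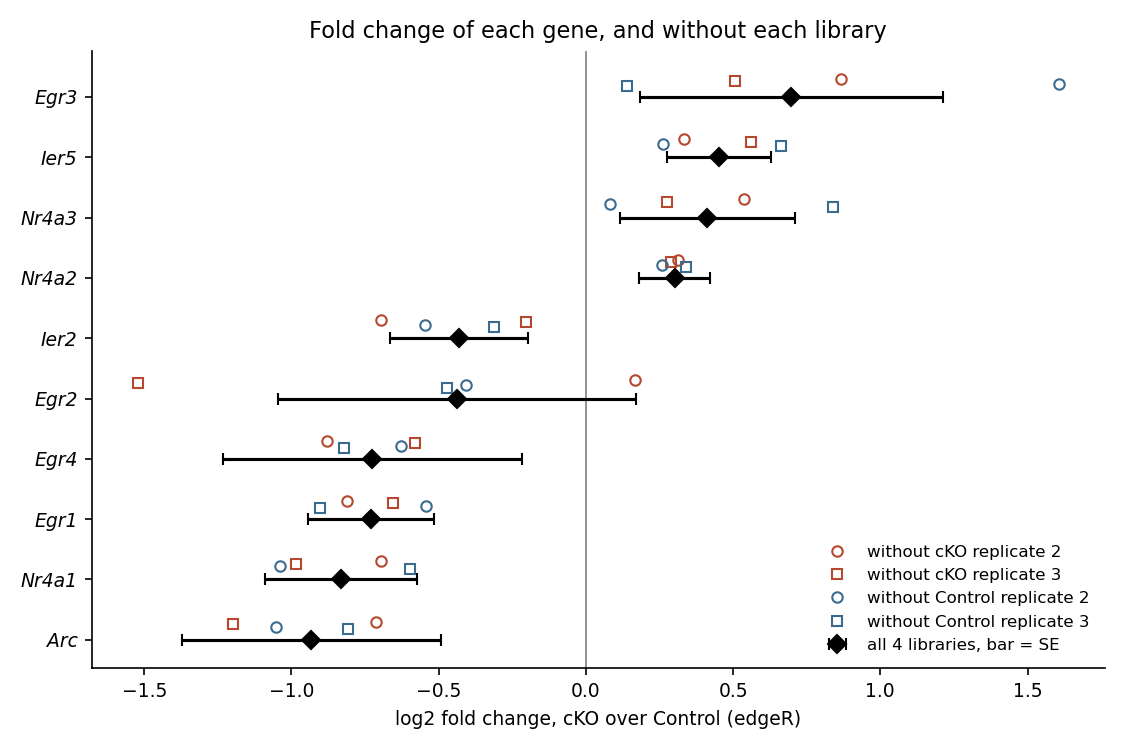
edgeR log2 fold change of cKO over Control for each of the 10 genes (black diamonds, bars are the SE, n = 2 per group), with the value after leaving out 1 library (open symbols; red for a cKO and blue for a Control library, circles for replicate 2 and squares for replicate 3). Symbols of Egr2 lie on both sides of 0, from -1.52 to 0.17, and those of the other 9 genes on 1 side.

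Compared per transcript length, the 10 genes spanned a wide range of levels. Nr4a2 was the highest in both groups, at 57.5 ± 5.04 TPM in cKO and 46.6 ± 0.757 TPM in Control libraries (SD, n = 2). Next in cKO came Ier5 at 44.7 ± 0.920 TPM and Ier2 at 25.6 ± 3.45 TPM. In Control libraries Ier2 stood at 35.8 ± 2.89 TPM and Ier5 at 34.3 ± 6.36 TPM, and their libraries overlapped, whereas in cKO the libraries of Ier5 and Ier2 did not. Egr1 and Nr4a1 followed, at 9.16 ± 0.269 and 7.08 ± 1.70 TPM in cKO and at 15.3 ± 3.06 and 12.9 ± 2.56 TPM in Control libraries. Egr1 and Nr4a1 overlapped in Control but not in cKO libraries. Nr4a3 stood at 5.82 ± 1.01 TPM in cKO and 4.60 ± 1.89 TPM in Control libraries.

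The remaining 4 genes were scarce. Egr3 averaged 2.74 ± 0.844 TPM in cKO and 1.65 ± 1.11 TPM in Control libraries (SD, n = 2). Egr4 averaged 1.80 ± 0.0509 TPM in cKO and 3.17 ± 0.486 TPM in Control libraries. Egr2 averaged 1.53 ± 1.35 TPM in cKO and 1.86 ± 0.187 TPM in Control libraries, so its spread in cKO was close to its mean. Arc averaged 1.20 ± 0.398 TPM in cKO and 2.29 ± 0.222 TPM in Control libraries. Egr3 was 7th in the order in cKO and last in Control libraries, and Arc was last in cKO and 8th in Control libraries. Neighbours in the order whose libraries overlapped were Nr4a1 and Nr4a3, Egr4 and Egr2, and Egr2 and Arc in cKO, and Nr4a3 and Egr4, and Egr2 and Egr3, in Control libraries. Averaged over the 4 libraries, Nr4a2 lay at the 80.8th percentile of all genes tested and Egr2, the lowest of the 10, at the 18.8th.

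**Figure D4:**
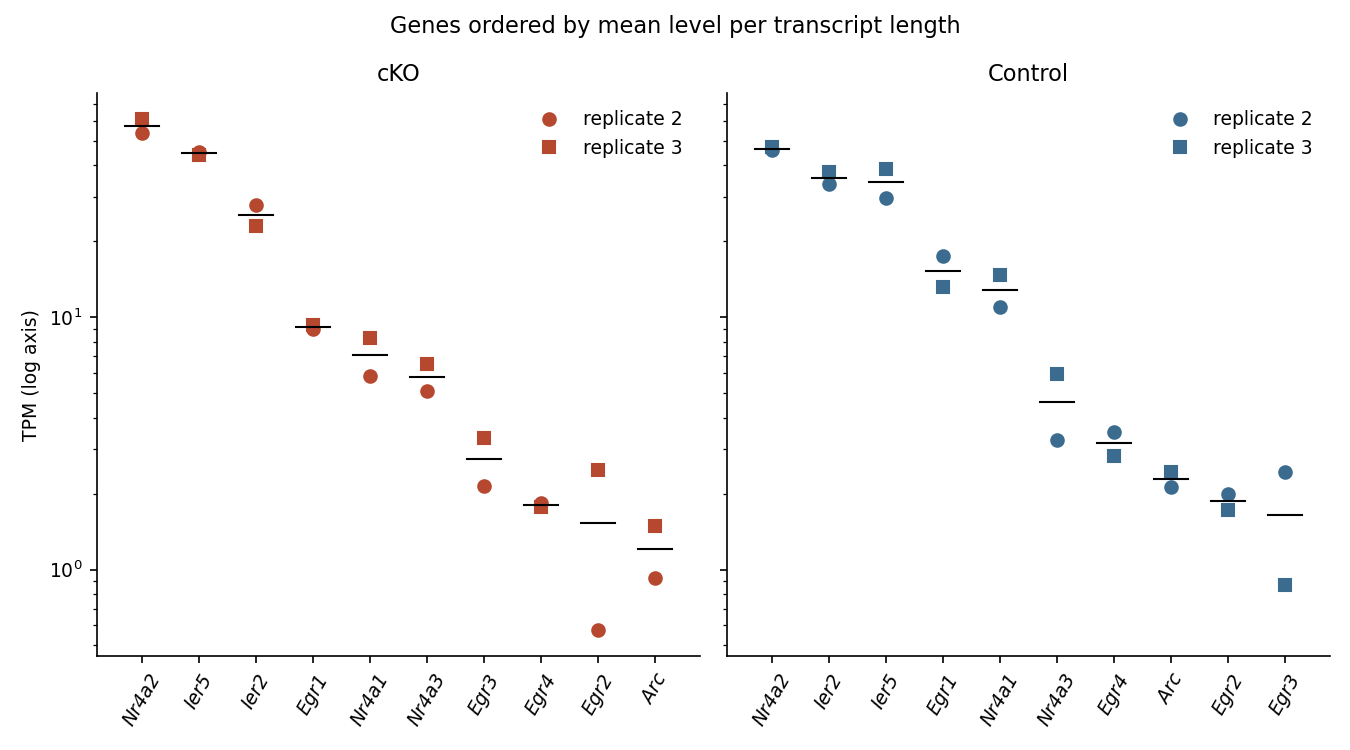
Level in TPM (log axis) of the 10 genes in each library of cKO (left, red) and Control (right, blue), ordered by the group mean (black lines); circles are replicate 2 and squares replicate 3. Nr4a2 leads both panels, Ier5 and Ier2 exchange places between them, and Arc ends the cKO order at 1.20 TPM while Egr3 ends the Control order at 1.65 TPM.

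The genes were also described by their spans, counts and annotated functions. Their genomic spans had a median of 5287 bases, from 1524 for Ier2 to 41295 for Nr4a3, against a median of 25040 bases over the 14437 protein-coding genes tested. All 40 of their estimated counts were whole numbers, as were those of 62.1% of all genes tested in all 4 libraries, and no other gene of the table overlapped them on either strand. Molecular function terms of the table named all 7 EGR and NR4A genes, but not Arc, Ier2 or Ier5, as DNA-binding transcription factors.

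Other genes of the same response did not follow a common direction. Of the 8 AP-1 early genes 6 were tested, 3 positive and 3 negative, with a median log2 fold change of -0.04 and none called. Fos, the AP-1 gene most used beside Egr1 and Arc as a marker of activity and named here after its values were seen, had 11.8 and 7.49 CPM in cKO 2 and cKO 3, against 10.4 and 10.5 CPM in Control 2 and Control 3. Those groups overlapped, and the log2 fold change was -0.11 (SE 0.32, edgeR adjusted p = 0.930). Junb, another AP-1 subunit gene, had 9.53 and 9.63 CPM in cKO libraries, against 12.9 CPM in both Control libraries (log2 fold change -0.43, SE 0.26, edgeR adjusted p = 0.586). Fosl2 and Atf3 had log2 fold changes of 0.37 and -1.44, and Atf3 rested on 1 to 26 counts a library. Fosb and Fosl1 were too scarce to be tested.

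Of the 34 other rapid activity-induced genes, all were tested, 21 had positive and 13 negative fold changes, and none was called (median log2 fold change 0.08). Rgs2, a regulator of G protein signalling with activity-dependent expression, had 31.5 and 27.5 CPM in cKO libraries, against 60.4 and 44.8 CPM in Control libraries (log2 fold change -0.84, SE 0.21, edgeR adjusted p = 0.301). Of the Krüppel-like factor genes, Klf2 stood at a log2 fold change of -1.11 (SE 0.33) and Klf10 at 0.84 (SE 0.27). Among 18 later activity-regulated genes 17 were tested, 9 positive and 8 negative, with a median of 0.02 and none called. Syt4, a synaptotagmin of dense-core vesicles, had 556 and 502 CPM in cKO libraries, against 388 and 380 CPM in Control libraries (log2 fold change 0.46, SE 0.10, edgeR adjusted p = 0.280). Tiparp and Scg2 had values of 0.42 and -0.24.

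Among 5 partner genes of the EGR and NR4A proteins, 1 was called. Rxrg, which encodes a retinoid X receptor, the class that pairs with NR4A1 and NR4A2, had 3.37 and 7.84 CPM in cKO libraries, against 87.3 and 63.5 CPM in Control libraries (log2 fold change -3.73, SE 0.38, edgeR adjusted p = 0.0414). Its log2 fold change lay between -4.48 and -3.26 when any library was left out, and the call was lost in each of these fits (edgeR adjusted p from 0.232 to 0.846), in which at most 2 genes of all were called. All 16 striatal neuron markers were negative too (median log2 fold change -1.62), and the part of striatal RNA in the Rxrg value was not tested. Nab1, which encodes a corepressor of EGR proteins, had 34.6 and 48.0 CPM in cKO libraries, against 23.4 and 30.2 CPM in Control libraries (log2 fold change 0.62, SE 0.23, edgeR adjusted p = 0.425). Rxrb had a log2 fold change of -0.38 (SE 0.16). Of the 15 factors and cofactors that switch early genes on (SRF, ELK, MRTF, CREB, CRTC and MEF2 genes), 10 were positive and 5 negative, with a median of 0.05 and none called. Elk3, an SRF partner that can repress, had 11.4 and 11.2 CPM in cKO libraries, against 5.86 and 7.56 CPM in Control libraries (log2 fold change 0.75, SE 0.30, edgeR adjusted p = 0.435). Elk4 and the CREB coactivator gene Crtc1 had values of 0.62 and -0.29. The 24 genes of calcium entry and ERK signalling were split evenly by sign, 12 to 12, with a median of 0.02 and none called. Grin1, the obligatory NMDA receptor subunit gene, had 77.6 and 69.8 CPM in cKO libraries, against 108 and 97.5 CPM in Control libraries (log2 fold change -0.48, SE 0.14, edgeR adjusted p = 0.347). Rps6ka3 and Rps6ka2, which encode ERK-activated kinases, had values of 1.05 and -0.34.

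**Figure D5:**
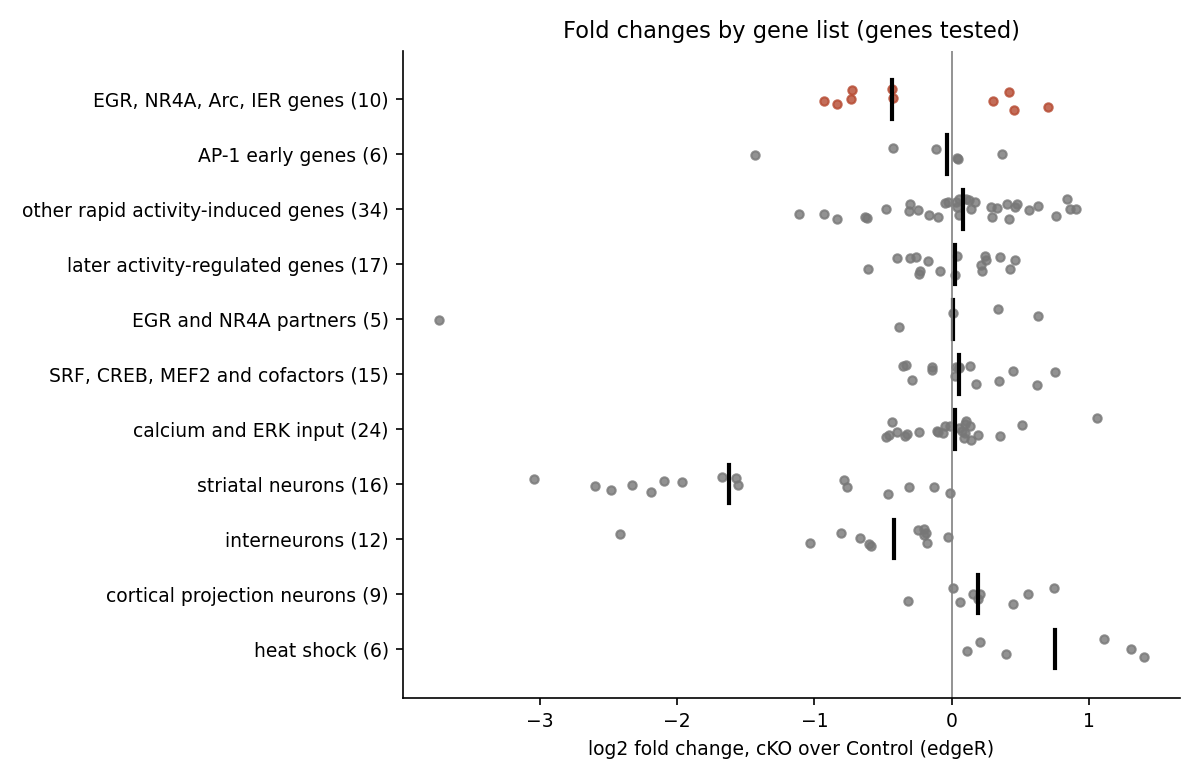
edgeR log2 fold changes of cKO over Control for the tested genes of each list (points, with the number tested in brackets; black bars are medians); the vertical scatter within a row is for legibility. The EGR, NR4A, Arc and IER genes (red), 6 negative and 4 positive, have a median of -0.43. The medians of the other activity lists lie between -0.04 and 0.08, and that of the striatal neuron list at -1.62.

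No marker gene of another cell type, and no heat shock gene or RNA held in the nucleus, was called by edgeR at an adjusted p below 0.05. All 16 striatal neuron markers had negative fold changes (median log2 fold change -1.62), with a summed level of 166 and 188 TPM in cKO libraries, against 479 and 363 TPM in Control libraries, and none at 0. Striatal neurons are known to express Nr4a1, Egr1, Egr3 and Arc. The part of the striatal RNA in the values of Egr1, Nr4a1 and Arc (all negative) and of Egr3 (log2 fold change 0.70) was not tested. All 12 interneuron markers were negative too (median -0.42, summed level 1721 and 1495 TPM in cKO and 2074 and 1910 TPM in Control libraries). Of the 9 cortical projection neuron markers, 8 were positive and 1 negative (median 0.19), and none was called. Microglial genes had 8 of 10 negative (median -0.19), endothelial and pericyte genes 7 of 9 positive (median 0.33), and meningeal fibroblast genes 7 of 9 positive (median 0.36). Of the 8 subplate and claustrum markers, the neurons in which Nr4a2 is known to be high, 5 were positive (median 0.07). Their summed level was 116 and 133 TPM in cKO and 123 TPM in each of the Control libraries, and the part of these cells in the Nr4a2 value was not tested. Astrocyte and radial glia, oligodendrocyte precursor, red cell and choroid plexus lists had medians of -0.15, -0.27, 0.03 and -0.98. Of the 10 RNAs held in the nucleus, 8 were negative (median -0.46), and their part in the early genes' values was not tested.

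Egr4 lies on the chromosome of the Cre driver gene. Emx1 (chromosome 6, 85164420 to 85181444) is 307 kb from Egr4, and 8 genes lie between them. Of these 6 were tested, with log2 fold changes from -0.26 to 0.17 and none called, against -0.72 for Egr4. Emx1 itself had 22.5 and 17.2 CPM in cKO libraries, against 12.6 and 11.1 CPM in Control libraries (log2 fold change 0.75, SE 0.25, edgeR adjusted p = 0.399). How Emx1-Cre was built is not given in the labels, and whether the position of Egr4 bears on its value was not tested.

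The median profile of the 10 genes, centred on each gene's mean log2 CPM, was -0.09 and -0.06 in cKO 2 and cKO 3, against 0.24 and 0.22 in Control 2 and Control 3. Shifted to a mean of 0 over the 4 libraries, it was -0.17 and -0.13 in cKO 2 and cKO 3, against 0.16 and 0.14 in Control 2 and Control 3. This median is not the profile of every gene, since Egr3, Nr4a2, Nr4a3 and Ier5 had positive log2 fold changes. The closest genes were sought among 10952 genes outside the lists with a mean of at least 5 CPM, without pseudogenes and predicted symbols such as Gm and Rik. The 5 closest were Tshz1, Glmp, Elp2, Jarid2 and Mkrn3, at Euclidean distances from the shifted profile between 0.0133 and 0.0243 over the 4 libraries. Their log2 fold changes lay between -0.31 and -0.29, which follows from their choice by this profile, and none was called.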

How the data were processed

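RNA came from the cerebral cortex of mice on postnatal day 1; per the labels' protocols, it was purified with TRIzol, cleared of DNA and turned into libraries with SMART-Seq v4, a poly(A)-primed kit that does not mark strand. The authors deposited estimated counts and TPM per gene for each of the 4 libraries; DRAGEN and GRCm39 are named in the submitters' processing notes, with no version, annotation or settings given in the sources used here. Each deposited TPM column sums to 1e+06, and 12.0% to 13.5% of rows of an estimated count column are not whole. Estimated counts were rounded, filtered with edgeR's default (17017 of 55414 genes left), scaled by TMM factors (0.979 to 1.02), and compared by genotype with edgeR's quasi-likelihood test (edgeR 4.0.16, R 4.3.3), with Benjamini-Hochberg adjustment over all genes and a threshold of 0.05. SE is the absolute log2 fold change over the square root of F. Directions are cKO over Control. CPM carry the TMM scaling; their SD is over n = 2.

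The members and gene lists were chosen with earlier results of these data known, so no list was tested. Named genes are the 10 members, Map2k7, Emx1, the called genes and up to 3 genes of smallest p of each activity list, and the 5 genes nearest the members' median profile; others are marked. On simulated counts (16486 genes tested), changes were put only into genes with a mean of at least 5 CPM. Of these, 55 of 100 with a 2-fold change and 96 of 100 with a 4-fold change were called in the right direction. In error, 11 of 16286 unchanged genes were called. These shares do not cover Egr2, Egr4 and Arc, whose group means lay below 5 CPM, nor changes below 2-fold, as those of all 10 members were. Alternatives were other scalings and filters, DESeq2 1.42.0, limma-voom (limma 3.58.1), a replicate block, robust shrinkage, protein-coding genes only and each library left out. Promoter windows are RefSeq's on GRCm38.p6, and gene coordinates are the deposited table's.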

Additional observations from a re-analysis of the deposited data

How the results depend on the processing

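Of 130 member fold changes under 13 alternatives, 129 kept their direction and stayed short of the threshold; that of Egr2 turned to 0.17 without cKO replicate 2 (and was -1.52 without cKO replicate 3), and the smallest adjusted p was 0.155 (Egr1, DESeq2). The count of members called was 0 under each alternative, and from 0 to 0 without each library. Over all genes, 8 were called; 58 with no filter, 190 with DESeq2, and from 0 to 2 when a library was left out (fewer samples). With no filter 26543 genes were tested; for DESeq2 the cause was not tested. The replicate block gave 7 calls over all genes and 0 among the members. Samples with the same number did not deviate together over all genes (correlation of deviations 0.0136), although choroid plexus RNA followed the number. The labels tie a number to no litter or batch, so the libraries were not treated as paired. Whether the numbers mark a pairing is not known. Depth limits the scarcest genes most: Egr4 had 39 to 66 counts and Egr2 25 to 97 counts a library, and how small a difference could be called at these counts was not tested.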
